A study of Homo sapiens with 18 samples.

Results

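Fatty acid synthesis and desaturation were followed through 10 genes, chosen by their symbols: ACLY, ACSS2, ACACA, FASN, ELOVL6, ELOVL5, SCD, FADS1, FADS2 and LPIN1. The choice was made with earlier results of these data known. Counts and medians over these members therefore describe the genes and are not independent evidence of a direction. Each symbol matched 1 of the 36576 genes in the expression table, and every peak assigned to these genes in 2 tables of differential m6A peaks was read as well. All 10 genes were among the 12224 that had a mean of at least 1 FPKM (fragments scaled to transcript length and library size) over the input libraries and were therefore tested.

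The series asks whether RNA methylation changed when cells labelled A549, a line from a human lung adenocarcinoma, were incubated with a nanomaterial. The control cells received no material, the second group received 10 mg/L BPQD (black phosphorus quantum dots) for 24 h, and the third received 100 mg/L TiO2 (titanium dioxide) for 24 h. Per group, 3 libraries were made from input RNA and 3 from RNA pulled down for N6-methyladenosine (m6A), a methyl mark found inside mRNAs. The doses of the materials differ by mass, so BPQD and TiO2 were compared only as the exposures given. The labels do not say whether replicates came from separate cultures, so every p-value measures only the spread between these libraries, which may be technical.

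Cells build fatty acids in the cytosol from acetyl-CoA, which ATP citrate lyase (ACLY) makes from citrate and ACSS2 makes from acetate. ACACA carboxylates acetyl-CoA to malonyl-CoA, FASN assembles malonyl-CoA into palmitate, ELOVL enzymes lengthen the chain, and the desaturases SCD, FADS1 and FADS2 insert double bonds. Many of these genes are known targets of the SREBP transcription factors, which SCAP escorts out of the endoplasmic reticulum unless INSIG proteins retain the complex there, as they do when sterols are plentiful, and fast-growing tumour cells often depend on this pathway for membrane lipid.

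Some facts of the libraries bear on the labels. Of 6 genes that mark A549 cells or alveolar epithelium (AKR1B10, AKR1C1, ALDH1A1, SFTPB, SFTPC and NKX2-1), 0 reached a mean of 1 FPKM, and the highest value in any input library was 1.14 FPKM. Of 6 epithelial markers, 4 reached it. The 6 summed to 1150 to 1240 FPKM in control, 852 to 870 under BPQD and 952 to 1050 under TiO2, almost all from KRT18, KRT8 and KRT7. EPCAM went the other way without passing the test, averaging 2.19 FPKM in control, 2.68 under BPQD and 2.71 under TiO2. CDH1 and KRT19 averaged only 0.337 and 0.239 FPKM over the input libraries. The 5 fibroblast markers summed to 27.6 to 28.2, 12.7 to 23.9 and 25.9 to 35.2 FPKM in the same order of groups, mostly from LUM. Under TiO2 the fibroblast markers COL1A1 and PDGFRB fell by 0.64 ± 0.06 and 0.37 ± 0.06 on the log2(FPKM + 1) scale (limma, adjusted p = 0.000153 and 0.00229). Under BPQD COL1A1 and PDGFRB also fell, by 0.42 ± 0.06 and 0.61 ± 0.06 (adjusted p = 0.000811 and 0.000161). LUM did not pass the test against control, at -0.60 ± 0.27 under BPQD and 0.24 ± 0.27 under TiO2 (adjusted p = 0.109 and 0.518). The 5 leukocyte markers summed to 11.4 to 13.6, 11.9 to 13.0 and 17.7 to 23.2 FPKM, almost all of it from CD68, while PTPRC stayed at or below 0.0346 FPKM. The 4 endothelial markers summed to 3.02 to 3.66, 1.19 to 1.35 and 2.15 to 3.92 FPKM, mostly from CDH5. The part of these marker differences in the results was not tested. In bulk RNA, less RNA per cell and fewer cells that hold the RNA cannot be told apart.

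Under TiO2 most of the pathway was higher than in control. Of the 10 genes, 7 rose (ACLY, ACSS2, ELOVL6, ELOVL5, SCD, FADS1 and LPIN1), 1 fell (FADS2) and 2 did not pass the test (ACACA and FASN), with the test being limma on log2(FPKM + 1) at a Benjamini-Hochberg adjusted p under 0.05. Over all tested genes, 37.7% changed in this comparison, 17.3% being higher and 20.5% lower. The members' median difference was 0.20 on the log2 scale, beside -0.02 over all tested genes. The acetate-activating enzyme ACSS2 and the stearoyl-CoA desaturase SCD differed most, at 1.88 and 1.65 times the control FPKM. The fall of FADS2 and the rise of LPIN1 were lost in most alternative fits, as given with each gene.

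Under BPQD more members fell than rose. Of the 10 genes, 5 fell (ACSS2, FADS2, FASN, FADS1 and SCD), 2 rose (ELOVL5 and ACACA) and 3 did not pass the test (ACLY, ELOVL6 and LPIN1). Over all tested genes, 44.0% changed, 20.6% being higher and 23.4% lower. The members' median was -0.08, beside -0.01 over all tested genes. With values rescaled to TPM, 3164 genes were higher and 2263 lower in this comparison, against 2524 and 2860 as deposited, while the 5 falls among the members were still called. The rise of ACACA was lost in 10 of 16 alternative fits, as given with the gene.

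Set directly against TiO2, BPQD gave lower levels of 6 members (ACSS2, SCD, FADS1, ELOVL6, ACLY and FASN), higher levels of 0, and 4 that did not pass the test. In that comparison 37.6% of all tested genes changed, 19.0% being higher under BPQD and 18.6% lower. The members' median was -0.16, beside 0.00 over all tested genes. The comparisons with control share the same 3 control libraries, so they are not independent, and each gene's values are given side by side below. Where a shared direction or order of groups is stated, it describes these values only.

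**Figure D1:**
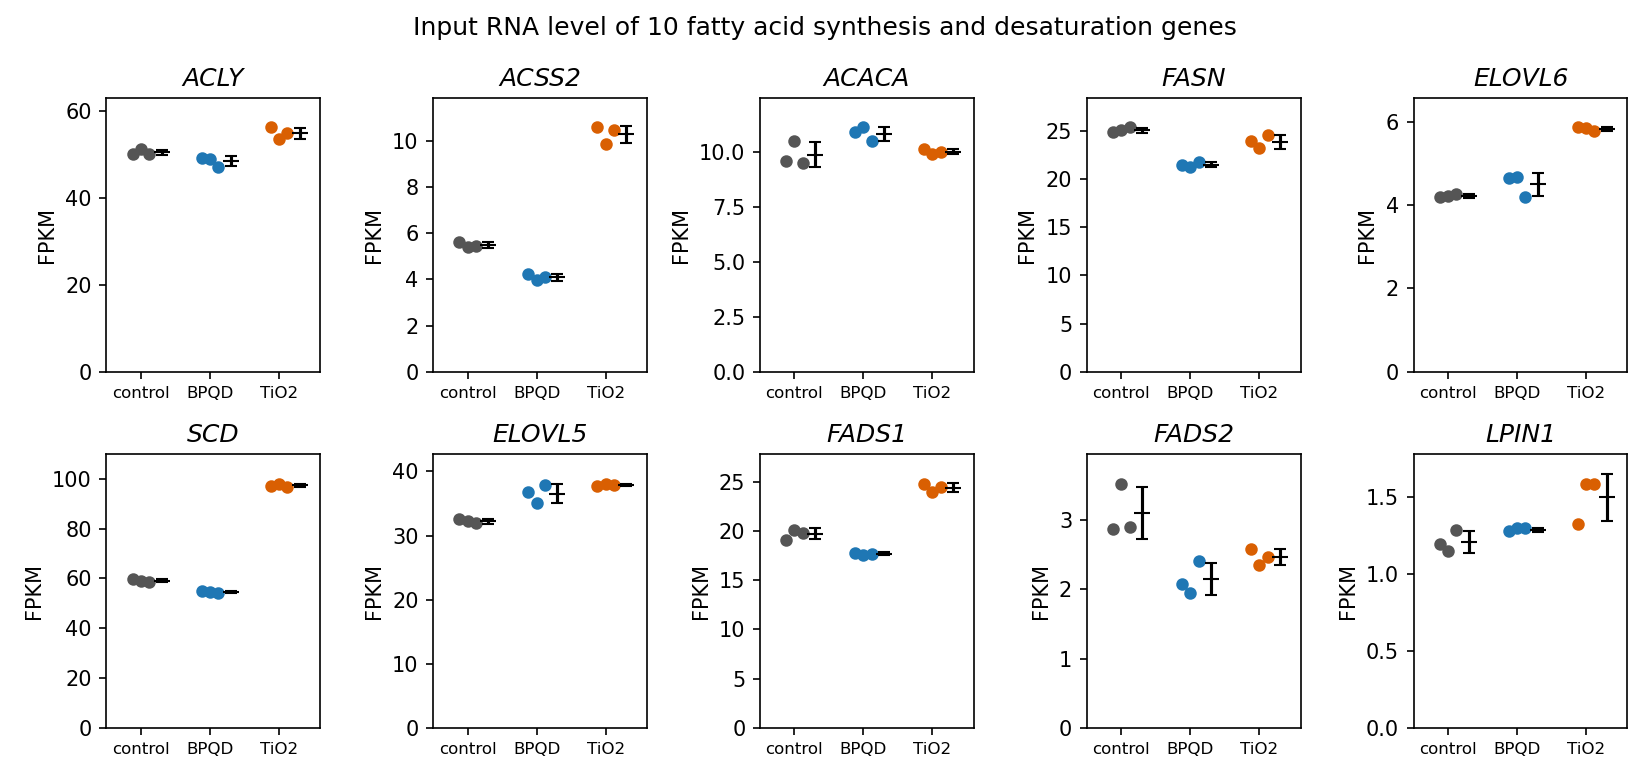
Level of each gene in FPKM (vertical axes, from 0) in the 3 input libraries of the control, BPQD and TiO2 groups, with 1 point per library and the mean ± SD beside the points. SCD lies at 96.9 to 98.1 FPKM under TiO2 and ACSS2 at 9.89 to 10.6, above every control and BPQD library of the same gene.

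The promoters of the members that differed most under TiO2, SCD and ACSS2, are shown because SREBP-driven promoters are known to pair SREBP sites with sites for the cofactors NF-Y and Sp1. The sequences are the 250 bases before a RefSeq transcript start on GRCh38.p14, plus strand, chr10:100346983-100347232 for SCD and chr20:34874739-34874988 for ACSS2. Capitals mark the NF-Y box CCAAT and the GC box GGGCGG on either strand.
SCD: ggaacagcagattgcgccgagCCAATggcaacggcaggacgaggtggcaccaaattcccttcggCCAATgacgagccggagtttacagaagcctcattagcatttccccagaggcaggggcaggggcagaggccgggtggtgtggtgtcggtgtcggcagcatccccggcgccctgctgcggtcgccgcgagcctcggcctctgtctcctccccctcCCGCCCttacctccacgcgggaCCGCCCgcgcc
ACSS2: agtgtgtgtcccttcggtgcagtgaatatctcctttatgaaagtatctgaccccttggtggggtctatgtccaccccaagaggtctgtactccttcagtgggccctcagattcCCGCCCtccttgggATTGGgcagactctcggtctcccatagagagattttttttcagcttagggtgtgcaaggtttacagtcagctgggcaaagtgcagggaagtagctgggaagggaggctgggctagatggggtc
The SCD window held 2 NF-Y boxes and 2 GC boxes, and this ACSS2 window held 1 of each. A second ACSS2 window (chr20:34876362-34876611) held 0 NF-Y boxes and 3 GC boxes. Windows were found for 9 of the 10 members, all but FASN, 16 windows in all. The ACLY windows overlap, as do the FADS2 windows, and both ACLY windows hold the same NF-Y boxes. Counts of windows are therefore not counts of separate sites. An NF-Y box lay in 7 of the 16 windows, those of 5 members (ACLY, ACACA, ACSS2, ELOVL5 and SCD), beside 32.0% of all 35116 promoter windows of the same length. A GC box lay in 12 of the 16, those of 8 members, all with a window but ELOVL5, beside 42.6% of all windows. The sterol regulatory element TCACNCCAC, searched on both strands, lay in 0 member windows and in 0.883% of all windows. These matches describe letters in a short window and are not evidence of binding.

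Of the acetyl-CoA suppliers at the head of the pathway, ACSS2 had the wider differences between groups. ACSS2 (ENSG00000131069, chr20:34872146-34927962, plus strand), which turns acetate into acetyl-CoA, stood at 5.63, 5.41 and 5.44 FPKM in control, 4.25, 3.96 and 4.09 under BPQD, and 10.6, 9.89 and 10.5 under TiO2. The 3 groups did not overlap, with TiO2 highest and BPQD lowest. ACSS2 rose under TiO2 by 0.80 ± 0.04 (SE) on the log2(FPKM + 1) scale (limma, adjusted p = 8.62e-06) and fell by 0.35 ± 0.04 under BPQD (adjusted p = 0.000227). Its difference between the exposures, BPQD minus TiO2, was -1.15 ± 0.04 (adjusted p = 1.78e-06), and 0.352% of tested genes lay below it.

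ACLY (ENSG00000131473, chr17:41866917-41930542, minus strand), which cleaves citrate exported from mitochondria, was far more abundant. Its levels were 50.1, 51.2 and 50.1 FPKM in control, 49.2, 49.1 and 47.1 under BPQD, and 56.3, 53.6 and 54.9 under TiO2. All 3 TiO2 libraries lay above all others, and the BPQD libraries lay just below control. ACLY rose under TiO2 by 0.12 ± 0.03 (limma, adjusted p = 0.00943). Under BPQD the difference was -0.06 ± 0.03, with a 95% interval of -0.12 to 0.00 and an adjusted p of 0.117, and with values rescaled to TPM it was -0.002 (adjusted p = 0.961). The ratio of ACLY to ACSS2 in FPKM was 8.90 to 9.47 in control, 11.5 to 12.4 under BPQD and 5.24 to 5.42 under TiO2.

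The enzymes that make and join malonyl-CoA did not pass the test under TiO2. FASN (ENSG00000169710, chr17:82078338-82098294, minus strand), the fatty acid synthase, stood at 24.9, 25.1 and 25.4 FPKM in control, 21.5, 21.3 and 21.8 under BPQD, and 24.0, 23.2 and 24.6 under TiO2. All BPQD libraries lay below all others, and the TiO2 libraries lay between BPQD and control without overlap. FASN fell under BPQD by 0.21 ± 0.03 (limma, adjusted p = 0.000493), and it was lower under BPQD than under TiO2, by -0.14 ± 0.03 (adjusted p = 0.00386). TiO2 minus control was -0.07 ± 0.03, with a 95% interval of -0.13 to -0.01 and an adjusted p of 0.0756. Without TiO2 replicate 3 this last difference was -0.09 and passed the test (adjusted p = 0.0456).

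ACACA (ENSG00000278540, chr17:37084992-37406836, minus strand), the acetyl-CoA carboxylase whose product FASN consumes, stood at 9.57, 10.5 and 9.49 FPKM in control, 10.9, 11.1 and 10.5 under BPQD, and 10.1, 9.87 and 10.0 under TiO2. Control replicate 2 reached the lowest BPQD library, and the TiO2 libraries lay within the control range. BPQD minus control was 0.12 ± 0.04 (limma, adjusted p = 0.0414), a call lost in 10 of 16 alternative fits. Leaving out control replicate 1 or 3, BPQD replicate 1 or 2, or any TiO2 library ended it, with differences of 0.10 to 0.12 and adjusted p of 0.0577 to 0.123. TiO2 minus control was 0.02 ± 0.04, with a 95% interval of -0.07 to 0.12 (adjusted p = 0.723). BPQD minus TiO2 was 0.10 ± 0.04 (adjusted p = 0.0862) and passed the test without control replicate 2, at 0.10 (adjusted p = 0.0323).

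SCD (ENSG00000099194, chr10:100347233-100364826, plus strand), which puts the first double bond into stearate and palmitate, was the most abundant member in every group. Its levels were 59.7, 59.1 and 58.6 FPKM in control, 55.1, 54.7 and 54.3 under BPQD, and 97.1, 98.1 and 96.9 under TiO2. The groups were far apart compared with the spread inside them, which was at most 0.642 FPKM (SD, n = 3). SCD rose under TiO2 by 0.71 ± 0.02 (limma, adjusted p = 2.95e-07), and 99.1% of all tested genes had a lower value of this difference. It fell under BPQD by 0.11 ± 0.02 (adjusted p = 0.00128), or by 0.06 with values rescaled to TPM (adjusted p = 0.0299). BPQD minus TiO2 was -0.82 ± 0.02 (adjusted p = 1.97e-07).

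Both elongases were higher under TiO2. ELOVL6 (ENSG00000170522, chr4:110045846-110199199, minus strand), which lengthens palmitate to stearate, the substrate of SCD, stood at 4.19, 4.21 and 4.28 FPKM in control, 4.65, 4.67 and 4.20 under BPQD, and 5.87, 5.86 and 5.77 under TiO2. All TiO2 libraries were higher than all others, and BPQD replicate 3 lay inside the control range while the other two BPQD libraries lay above it. ELOVL6 rose under TiO2 by 0.39 ± 0.04 (limma, adjusted p = 0.000252), and BPQD minus TiO2 was -0.31 ± 0.04 (adjusted p = 0.000645). BPQD minus control was 0.07 ± 0.04 (95% interval -0.02 to 0.16, adjusted p = 0.169) and became 0.11 without BPQD replicate 3 (adjusted p = 0.0222).

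ELOVL5 (ENSG00000012660, chr6:53267398-53349179, minus strand), which lengthens polyunsaturated chains, was higher under both materials. Its levels were 32.6, 32.2 and 31.9 FPKM in control, 36.8, 35.0 and 37.9 under BPQD, and 37.7, 38.1 and 37.8 under TiO2. Every exposed library lay above every control library, and the exposed groups overlapped. ELOVL5 rose under BPQD by 0.17 ± 0.03 (limma, adjusted p = 0.00235) and under TiO2 by 0.23 ± 0.03 (adjusted p = 0.0009). BPQD minus TiO2 was -0.05 ± 0.03, with a 95% interval of -0.12 to 0.02 (adjusted p = 0.225).

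The front-end desaturases FADS1 and FADS2, which act in turn on polyunsaturated fatty acids and lie next to each other on chromosome 11, did not move together under TiO2. FADS1 (ENSG00000149485, chr11:61799625-61829318, minus strand), the delta-5 desaturase, stood at 19.1, 20.1 and 19.8 FPKM in control, 17.8, 17.5 and 17.7 under BPQD, and 24.8, 23.9 and 24.5 under TiO2. The groups did not overlap, in the same order as for SCD and ACSS2. FADS1 rose under TiO2 by 0.30 ± 0.03 (limma, adjusted p = 0.000159), fell under BPQD by 0.15 ± 0.03 (adjusted p = 0.00355), and differed between the exposures by -0.44 ± 0.03 (adjusted p = 2.17e-05).

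FADS2 (ENSG00000134824, chr11:61792980-61867354, plus strand), the delta-6 desaturase, stood at 2.87, 3.53 and 2.90 FPKM in control, 2.08, 1.95 and 2.41 under BPQD, and 2.59, 2.36 and 2.47 under TiO2. Every exposed library lay below every control library, and control replicate 2 stood above the other two controls. FADS2 fell under BPQD by 0.38 ± 0.08 (limma, adjusted p = 0.00574), a call kept in all 16 alternative fits. TiO2 minus control was -0.23 ± 0.08 (adjusted p = 0.048), a call lost in 14 of 16. Leaving out any single library other than BPQD replicate 3 ended it, with differences of -0.27 to -0.16 and adjusted p of 0.0506 to 0.129. The FADS1 to FADS2 ratio in FPKM was 5.71 to 6.84 in control, 7.37 to 8.98 under BPQD and 9.58 to 10.1 under TiO2.

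The spans of FADS1 and FADS2 in the deposited table overlap on opposite strands. The FADS2 span starts 23223 bases before its RefSeq start and the FADS1 span ends 12315 bases past its RefSeq end. The sources used here do not say whether fragments were counted by strand, so how reads in the overlap were shared between both genes is not known and both levels are uncertain to that extent.

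LPIN1 (ENSG00000134324, chr2:11677595-11827409, plus strand), a phosphatidate phosphatase that makes diacylglycerol for storage and membrane lipid, was the least abundant member. Its levels were 1.20, 1.15 and 1.29 FPKM in control, 1.28, 1.30 and 1.30 under BPQD, and 1.33, 1.59 and 1.59 under TiO2. TiO2 replicate 1 lay just above the highest control, and the other two TiO2 libraries lay further above. TiO2 minus control was 0.18 ± 0.05 (limma, adjusted p = 0.0358), or 0.28 with a pseudocount of 0.1 or with values rescaled to TPM. The call was lost in 10 of 16 alternative fits. Leaving out control replicate 1 or 2, any BPQD library, or TiO2 replicate 2 or 3 ended it, with differences of 0.15 to 0.18 and adjusted p of 0.0528 to 0.108. BPQD minus control was 0.05 ± 0.05 (adjusted p = 0.47). BPQD minus TiO2 was -0.12 ± 0.05 (adjusted p = 0.112) and passed the test at -0.18 without TiO2 replicate 1 (adjusted p = 0.0301).

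**Figure D2:**
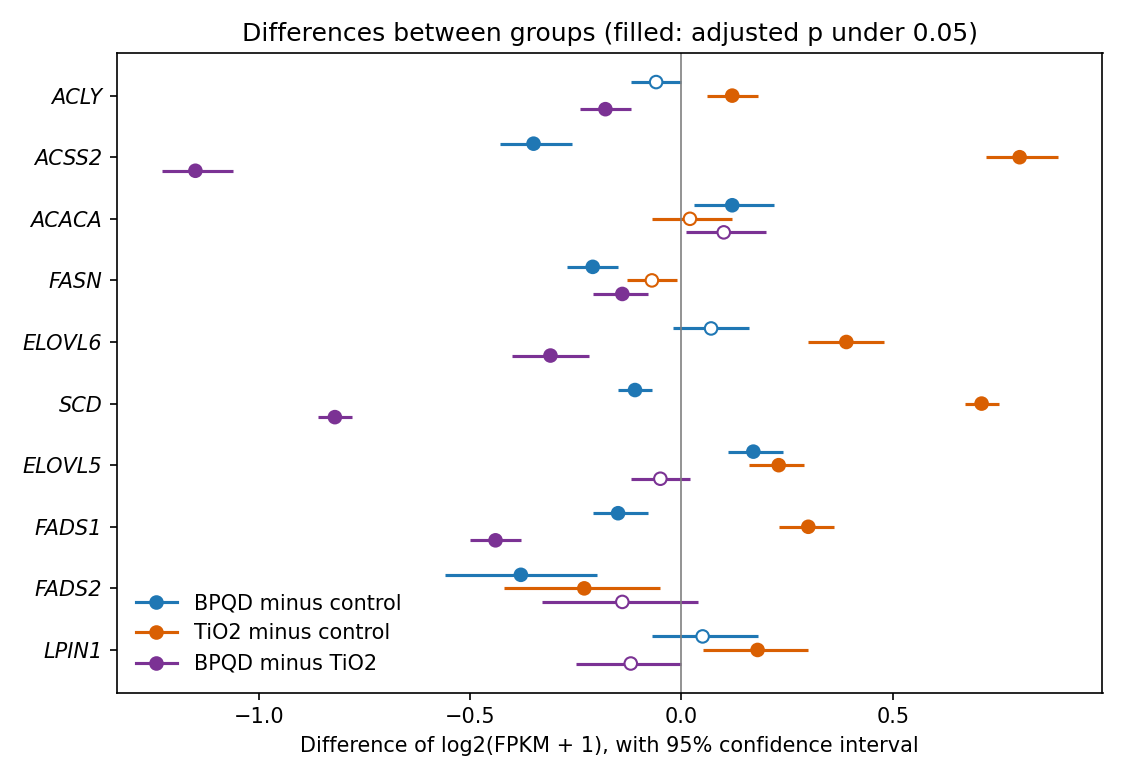
Difference of log2(FPKM + 1) between groups for each gene (horizontal axis), with its 95% confidence interval as a line and filled points where the adjusted p is under 0.05. ACSS2 (0.80) and SCD (0.71) lie farthest to the right for TiO2 minus control, and ACSS2 (-1.15) farthest to the left for BPQD minus TiO2.

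Because FPKM is scaled by length, the members' levels can be ranked within a group. In control the order was SCD (59.1 FPKM on average), ACLY (50.5), ELOVL5 (32.2), FASN (25.1), FADS1 (19.7), ACACA (9.85), ACSS2 (5.49), ELOVL6 (4.23), FADS2 (3.10) and LPIN1 (1.21), and no neighbours in it overlapped. Under BPQD, ELOVL6 (4.50) stood beside ACSS2 (4.10) with overlapping libraries. Under TiO2, FADS1 (24.4) overlapped FASN (23.9), and ACSS2 (10.3) overlapped ACACA (10.0). The 10 levels added up to 209 to 213 FPKM in control, 201 to 204 under BPQD and 266 to 270 under TiO2.

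SCD supplied most of the gain in that sum under TiO2. Its share of the summed level was 27.8% to 28.4% in control, 27.0% to 27.3% under BPQD and 35.9% to 36.8% under TiO2. SCD stood at 2.30 to 2.40 times FASN in control, 2.49 to 2.57 times under BPQD and 3.94 to 4.23 times under TiO2. ELOVL5 stood at 7.46 to 7.78 times ELOVL6 in control, 7.48 to 9.03 times under BPQD and 6.42 to 6.55 times under TiO2. The SCD to FASN ratio lay above the control range in every library of both materials, and the elongase ratio lay below it in every TiO2 library.

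Regulators of the pathway changed in both directions. SREBF1, which encodes the SREBP that drives fatty acid genes, fell under BPQD by 0.38 ± 0.03 (limma, adjusted p = 0.000116) and under TiO2 by 0.34 ± 0.03 (adjusted p = 0.000261). SREBF2, which encodes the SREBP that favours cholesterol genes, fell under BPQD by 0.39 ± 0.02 (adjusted p = 1.35e-05), and TiO2 minus control was 0.04 ± 0.02 (adjusted p = 0.196). SCAP, the escort of both SREBPs, fell by 0.24 ± 0.03 and 0.30 ± 0.03 (adjusted p = 0.000744 and 0.000325). INSIG1, the SREBP target that retains SCAP, stood at 3.94, 3.76 and 3.88 FPKM in control, 3.60, 3.09 and 3.16 under BPQD and 8.67, 9.02 and 9.41 under TiO2. INSIG1 rose under TiO2 by 1.05 ± 0.05 (adjusted p = 1.12e-05) and fell under BPQD by 0.18 ± 0.05 (adjusted p = 0.022), the same order of groups as SCD, ACSS2 and FADS1. MLXIPL, which encodes the glucose-responsive factor ChREBP, rose under BPQD by 0.22 ± 0.07 (adjusted p = 0.0353), and TiO2 minus control was -0.11 ± 0.07 (adjusted p = 0.254). Of 14 tested regulators, 3 rose and 4 fell under BPQD, and 3 rose and 3 fell under TiO2, with medians of -0.14 and -0.07. Among all tested genes, 44.0% changed under BPQD (20.6% higher, 23.4% lower) and 37.7% under TiO2 (17.3% higher, 20.5% lower). The regulators' counts are near that background, which is also the background for the lists that follow.

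Genes that supply carbon and NADPH showed no common direction under TiO2. Of 7 tested, 2 rose and 2 fell under TiO2 (median 0.00), and 1 rose and 4 fell under BPQD (median -0.20). IDH1, which makes cytosolic NADPH, rose by 0.32 ± 0.06 under TiO2 (limma, adjusted p = 0.00394). Malic enzyme ME1 rose under both, by 0.20 ± 0.06 and 0.30 ± 0.06 (adjusted p = 0.0245 under BPQD and 0.00534 under TiO2). The citrate carrier SLC25A1 fell under BPQD by 0.31 ± 0.05 (adjusted p = 0.00138). ACACB, the mitochondrial form of acetyl-CoA carboxylase, fell by 0.22 ± 0.05 under BPQD and by 0.20 ± 0.05 under TiO2 (adjusted p = 0.00928 and 0.0164).

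The other elongation and desaturation genes mostly fell under BPQD. Of 12 tested, 8 fell and 0 rose under BPQD (median -0.33), and 2 rose and 1 fell under TiO2 (median -0.06). The fatty acid hydroxylase FA2H fell by 0.63 ± 0.05 (limma, adjusted p = 6.72e-05), the elongase ELOVL3 by 0.57 ± 0.05 (adjusted p = 7.15e-05), and SCD5, the second human stearoyl-CoA desaturase, by 0.54 ± 0.03 (adjusted p = 1.99e-05). SCD5 did not share the rise of SCD under TiO2, at -0.08 ± 0.03. HACD1, a dehydratase of the elongation cycle, rose under TiO2 by 0.22 ± 0.03 (adjusted p = 0.00124), and TECR, the reductase of the same cycle, fell by 0.22 ± 0.03 (adjusted p = 0.00184).

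Genes of acyl-CoA activation and glycerolipids divided under TiO2. Of 18 tested, 7 rose and 6 fell under TiO2 (median 0.01), and 1 rose and 8 fell under BPQD (median -0.21). The lipid droplet coat protein PLIN2 rose under TiO2 by 0.69 ± 0.03 (limma, adjusted p = 7.9e-06), and so did the acyl-CoA synthetases ACSL4, by 0.61 ± 0.03 (adjusted p = 1.04e-05), and ACSL3, by 0.56 ± 0.09 (adjusted p = 0.0028). Under BPQD the monoglyceride lipase MGLL fell by 0.70 ± 0.02 (adjusted p = 2.2e-06), the acyltransferase AGPAT2 by 0.60 ± 0.07 (adjusted p = 0.000336) and the triglyceride lipase PNPLA2 by 0.51 ± 0.05 (adjusted p = 0.00016). The same genes fell under TiO2, MGLL by 0.19 ± 0.02 (adjusted p = 0.00054), AGPAT2 by 0.33 ± 0.07 (adjusted p = 0.00694) and PNPLA2 by 0.39 ± 0.05 (adjusted p = 0.000786). The 12 genes of cholesterol synthesis and uptake all rose under TiO2 (median 0.65), and 2 rose and 3 fell under BPQD (median -0.06). These lists were chosen with results of these data known, so their counts describe the genes and are not independent evidence of a direction.

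**Figure D3:**
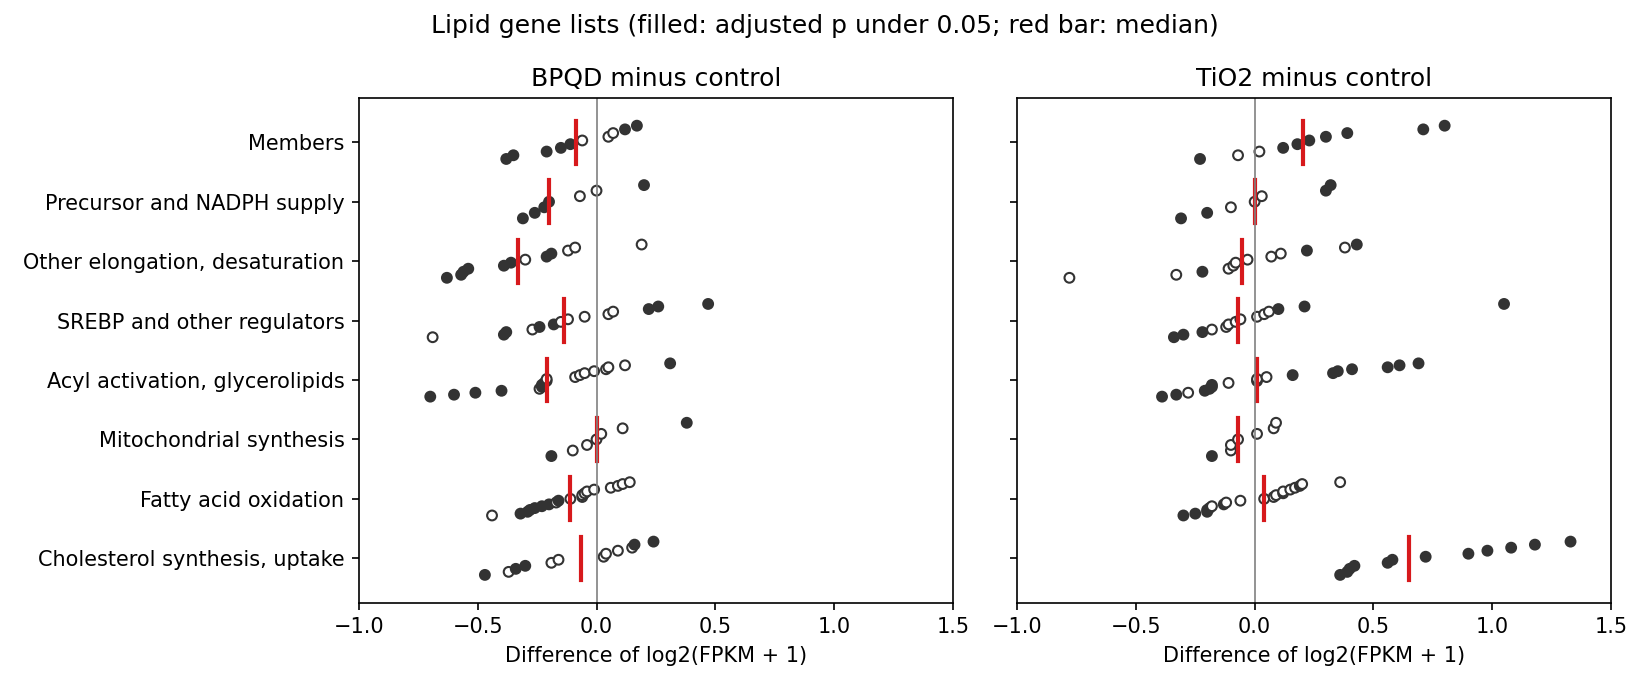
Difference of log2(FPKM + 1) from control under BPQD (left) and TiO2 (right) for the tested genes of each lipid gene list, with 1 point per gene, filled where the adjusted p is under 0.05, and a red bar at the median. The members' median is -0.08 under BPQD and 0.20 under TiO2, and all 12 cholesterol genes are filled and to the right of 0 under TiO2.

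In the m6A tables, 3 of the 10 members had a peak: ACACA, ELOVL6 and FADS2. By comparison 53.6% of all tested genes had a listed peak in the BPQD table and 50.3% in the TiO2 table. SCD and ACSS2, which differed most in level, had none listed, so nothing on their methylation could be read here. The authors' deposited tables list 6 peaks of these genes for each material, and for either material 5 of the 6 have the authors' p under 0.05, 3 with a higher and 2 with a lower m6A enrichment than control. For either material the 3 higher peaks include a peak assigned to FADS2 that has the start and end of another gene, FEN1, as given below. Over all peaks, 64.8% of 14903 in the BPQD table and 64.1% of 12891 in the TiO2 table pass that threshold, so the members' share is near the background in 2 small sets. At the authors' p under 0.01, or at their FDR under 0.05, 3 of the 6 peaks remain in the TiO2 table and 5 of 6 in the BPQD table. An FDR under 0.05 is held by 6520 of all 14903 BPQD peaks and 5153 of all 12891 TiO2 peaks. For either material the remaining member peaks include the peak with the start and end of FEN1. The share of all peaks with p under 0.01 was not counted. These values come from the authors' statistics on peaks, with no values per library here, so no SD is given.

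ACACA was listed at different ends of its transcript for each material. In the authors' deposited table for BPQD, a peak at its very 3′ end, annotated as 3′ UTR (chr17:37084992-37085291), had a log2 fold change of 0.536 (p = 1.05e-08, FDR 3.47e-07), the smallest p of any member peak. A second 3′ UTR peak in the authors' deposited table for BPQD (chr17:37085651-37085980) had 0.290 (p = 0.00129). In the authors' deposited table for TiO2 the only ACACA peak was annotated as 5′ UTR, at the gene's start (chr17:37406267-37406836), with 0.546 (p = 0.0251, FDR 0.117). ACACA therefore has higher listed enrichment under both materials, at peaks that do not overlap.

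ELOVL6 was listed with lower enrichment, again at different ends. The authors' deposited table for BPQD gives a 5′ UTR peak (chr4:110197924-110198930) with -0.401 (p = 0.00871, FDR 0.0479). The authors' deposited table for TiO2 gives a 3′ UTR peak that spans 9127 bases (chr4:110050720-110059846), so it can include more than one exon, with -0.160 (p = 0.00115, FDR 0.0112). ELOVL6 RNA was 1.38 times control under TiO2.

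FADS2 had peaks in both tables at its 3′ end. The authors' deposited table for BPQD gives a 3′ UTR peak (chr11:61866695-61867354) with -0.357 (p = 0.00407, FDR 0.0263). The authors' deposited table for TiO2 gives a 3′ UTR peak shifted by 30 bases (chr11:61866665-61867324) with -0.292 (p = 0.00575, FDR 0.0407). Both peaks lie outside the FADS1 span, and both tables use the same controls. The median size of a log2 fold change over all peaks in the authors' deposited tables was 0.417 for BPQD and 0.343 for TiO2.

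The other peaks assigned to FADS2 lie where another gene is annotated. A peak of 4328 bases listed as its 5′ UTR in both tables (chr11:61792911-61797238) has the same start and end as FEN1, a flap endonuclease gene on the same strand. In the authors' deposited tables its log2 fold change is 0.0445 for BPQD (p = 0.00138) and 0.0732 for TiO2 (p = 2e-07). FEN1 stood at 78.7 ± 0.991 FPKM in control, 76.0 ± 0.600 under BPQD and 75.2 ± 1.64 under TiO2 (SD, n = 3), far above FADS2. The remaining FADS2 peaks lie within the FADS1 span. The authors' deposited table for TiO2 gives one at chr11:61815838-61816281, over the RefSeq start of FADS2, with 0.716 (p = 0.0191, FDR 0.0977), and one inside FADS1 with -0.108 (p = 0.0759). The authors' deposited table for BPQD gives one of 121 bases beside the RefSeq start of FADS1 with -1.07 (p = 0.231). The peak tables carry no strand, so which gene the peaks within the FADS1 span belong to cannot be told apart. Strand would not separate FADS2 from FEN1. The 4328-base peak has the span of FEN1 and ends before the RefSeq start of FADS2, at 61816203, though it overlaps the deposited FADS2 span.

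**Figure D4:**
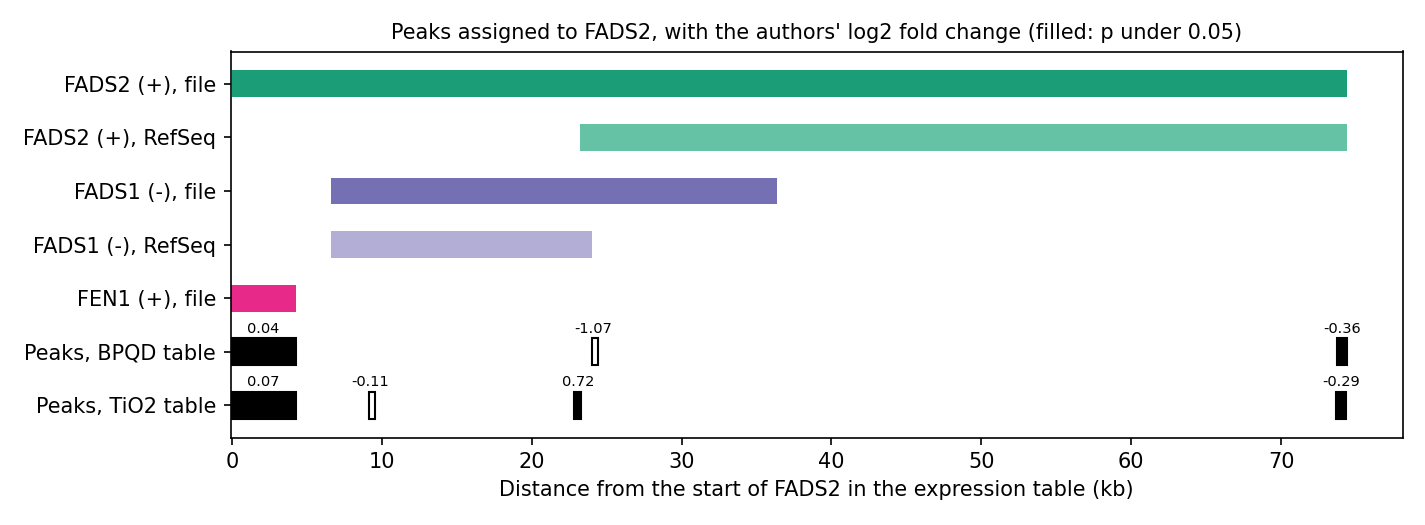
Spans of FADS2, FADS1 and FEN1 in the deposited table and of FADS2 and FADS1 in RefSeq, with the peaks assigned to FADS2 in each authors' table (filled where the authors' p is under 0.05) and their log2 fold change, against distance in kb from the start of FADS2 (the shortest peaks are drawn wider than they are, to be visible). The 4328-base peak covers FEN1 in both tables, and the peaks at the 3′ end of FADS2, at -0.357 and -0.292, lie clear of the other genes.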

How the data were processed

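Input RNA was read from 9 libraries, 3 in each of 3 groups taken from the sample titles. The 9 immunoprecipitated libraries enter only through the authors' peak tables. Per the file headers, the authors deposited FPKM per gene. The submitters' processing notes name HISAT2, StringTie 1.3.0 and the mouse build mm10, without roles. The gene IDs are human, 36346 of 36576 matched a table of human names, and all 10 members lay on the same chromosome as in RefSeq GRCh38.p14 with the start or the end within 100 bases, so coordinates are read as GRCh38. Read counts are not used here, depth is unknown, and precision rests on 3 libraries per group.

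For each differential m6A peak the authors deposited a p-value, a log2 fold change and a log10 FDR, which is treated as a score. The peak caller, any pooling of replicates, and whether counting used strand were not given in the sources used here. A set of 12 FPKM columns in the peak tables was not used.

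The package limma 3.58.1 (R 4.3.3) was run on log2(FPKM + 1), two-sided, with a variance trend, for genes averaging 1 FPKM or more. Group means were fitted to all 9 libraries, leaving 6 residual degrees of freedom, and p-values were Benjamini-Hochberg adjusted over 12224 genes. Fold changes on this scale understate those of low genes. Fits were tested on simulated data. Alternatives were a pseudocount of 0.1, no filter on the mean, TPM, median centring, quantile normalization, only the 6 libraries compared, a replicate block, and leaving out each library. The pairing of replicate numbers was checked from the data. Member peaks were counted where the authors' p was under 0.05. Promoter windows came from RefSeq. Tables and figures used Python 3.11.15, pandas 2.3.3, numpy 2.4.6 and matplotlib 3.10.9.

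The members and lists were chosen with earlier results of these data known. All members are named. Of each other list, up to 4 called genes per comparison with the largest change and groups that do not overlap could be named, and SREBF1, SREBF2, SCAP, INSIG1 and MLXIPL in any case. Some genes meeting that rule are left out. FEN1 and SCD5 under TiO2 were added after their values were seen.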

Additional observations from a re-analysis of the deposited data

How the results depend on the processing

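Of 30 tests (10 members in 3 comparisons), 22 kept their direction and their side of the threshold in all 16 alternative fits, 9 of which leave out 1 library. The exceptions were ACACA, ELOVL6, FADS2, FASN and LPIN1, whose values stand in the report. The sign of ACACA under TiO2 turned without control replicate 3, at -0.003 (adjusted p = 0.971), in a range of -0.003 to 0.06 over the left-out libraries. With values rescaled to TPM, ELOVL6 under BPQD (0.14, adjusted p = 0.0407) and ACACA between the exposures (0.15, adjusted p = 0.0332) passed the test. With quantile normalization LPIN1 between the exposures passed it (-0.16, adjusted p = 0.0455). Members changed numbered 6 to 8 under BPQD, 6 to 7 under TiO2 and 6 to 7 between the exposures when 1 library was left out. Of the TiO2 member peaks, 3 instead of 5 passed at the authors' p under 0.01 and 3 at their FDR under 0.05. That FDR was passed by 5153 of all 12891 TiO2 peaks. Without the filter on the mean, 3659 genes instead of 2323 were higher under BPQD than under TiO2. No other scaling moved the median of all genes beyond 0.04. Same-numbered libraries did not deviate together (correlations of -0.083 to 0.0733 over 9 pairs, against -0.0788 to 0.0842 over 18 differently numbered pairs). With the replicate number as a block, 4996, 4160 and 4150 genes changed under BPQD, under TiO2 and between the exposures, and 6 members in each, ACACA under BPQD (adjusted p = 0.0542), FADS2 under TiO2 (0.0978) and LPIN1 under TiO2 (0.0549) being lost. A planned count of peaks that overlap an exon was not run, because no exon annotation was used here. Depth is unknown, so precision rests on 3 libraries per group.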

Other observations

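Mitochondrial fatty acid synthesis and fatty acid oxidation run beside the cytosolic pathway. Of 7 tested mitochondrial synthesis genes, 1 rose and 1 fell under BPQD, and 0 rose and 1 fell under TiO2. HSD17B8, a subunit of the mitochondrial ketoacyl reductase, rose under BPQD by 0.38 ± 0.06 (limma, adjusted p = 0.00178), and its partner CBR4 fell by 0.19 ± 0.06 (adjusted p = 0.0296). Of 19 tested oxidation genes, 0 rose and 7 fell under BPQD (median -0.11), and 2 rose and 6 fell under TiO2 (median 0.04), while 44.0% and 37.7% of all tested genes changed under BPQD and TiO2. The short-chain dehydrogenase ACADS fell under both, by 0.32 ± 0.04 and 0.20 ± 0.04 (adjusted p = 0.000461 under BPQD and 0.00525 under TiO2), and so did the enoyl-CoA isomerase ECI1, by 0.28 ± 0.06 and 0.30 ± 0.06 (adjusted p = 0.00587 and 0.00503).

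Peaks assigned to other genes also lie inside the span of members. In the authors' deposited table for BPQD, peaks assigned to AC244093 (log2 fold change 2.02, p = 0.055) and HMGB1P24 (2.36, p = 0.0417) lie within ACACA, and one assigned to RPS16P5 (1.42, p = 0.301) lies within ELOVL5.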
